A study of Mus musculus with 2 samples.

Results

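The genes described here are 10 that coat, remodel or break down lipid droplets: the perilipins Plin1, Plin2, Plin3, Plin4 and Plin5, the fusion protein gene Cidec, the lipase genes Pnpla2 and Lipe, and Abhd5 and G0s2, which switch the first of these lipases on and off. They were chosen by gene symbol, and each matched 1 of the 55536 genes in the deposited tables. Together they have 49 of the 141864 annotated transcripts. The tissue was gastrocnemius, a calf muscle made of several fibre types, taken from female B6Cast F1 mice of 18 to 20 months per the labels, and its total RNA was sequenced. There is 1 group of 2 replicates, each made from 300 ng of RNA to which ERCC spike-ins (artificial control RNAs) were added. The labels give the replicates separate tissue samples but the same donor identifier, so they do not settle whether the replicates come from separate animals. There is no other age, sex, genotype or treatment to compare with, and what follows describes levels, transcripts and the spread between the libraries, with no p-values, since 1 library is set against 1.

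A lipid droplet is a core of triglyceride and sterol ester under a single layer of phospholipid. Perilipins sit on that surface and control which lipases reach the core. Pnpla2 (adipose triglyceride lipase) removes the first fatty acid from a triglyceride and Lipe (hormone-sensitive lipase) acts mainly on the diglyceride that remains. Abhd5 (CGI-58) is the coactivator of Pnpla2, and G0s2 is its inhibitor. In skeletal muscle the droplets lie next to mitochondria, which burn the fatty acids released, and Plin5 is the coat best known for linking the droplet to the mitochondrion. Plin1 and Cidec are best known from white adipocytes, where they guard and enlarge the single large droplet.

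The libraries held 38819119 expected counts in replicate 1 and 43918877 in replicate 2. Levels are given in TPM, a relative abundance that allows for transcript length. The labelled tissue matched its markers: the 8 fast fibre genes summed to 86971 TPM in replicate 1 and 78026 TPM in replicate 2, and all 4 genes common to all fibres were above 1 TPM. The 8 slow fibre genes summed to 451 TPM in replicate 1 and 2426 TPM in replicate 2. The libraries therefore stand apart in their slow fibre RNA. In bulk tissue, fewer cells of a type and less RNA per cell cannot be told apart.

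All 10 genes were expressed at 1 TPM or more in both libraries. Their summed level was 317 TPM in replicate 1 and 346 TPM in replicate 2. Pnpla2 was the highest, at 160 TPM in replicate 1 and 135 TPM in replicate 2 (148 ± 17.6, SD, n = 2), which ranked it 377 among protein-coding genes by mean TPM. Plin4 came next, at 77.2 TPM and 103 TPM (90.1 ± 18.3), rank 615. By gene TPM these genes kept the first and second place in both libraries, and their ranges did not meet each other or those of the other 8. In transcripts with a complete coding sequence the order was reversed. There Plin4 had 77.2 and 103 TPM by RSEM and Pnpla2 had 30.3 and 26.5 TPM. By kallisto Plin4 had 99.8 and 127 TPM in such transcripts and Pnpla2 had 9.84 and 18.9 TPM.

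The other 8 genes stood far below and close together. Plin2 had 17.2 and 29.0 TPM (23.1 ± 8.40), Abhd5 had 20.0 and 21.1 TPM (20.6 ± 0.778), and Plin3 had 10.3 and 22.0 TPM (16.2 ± 8.27). Plin5 had 9.13 and 12.7 TPM (10.9 ± 2.51), Lipe had 6.87 and 9.32 TPM (8.10 ± 1.73), and G0s2 had 9.26 and 4.70 TPM (6.98 ± 3.22). Plin1 had 4.18 and 4.50 TPM (4.34 ± 0.226), and Cidec was lowest with 2.69 and 4.34 TPM (3.52 ± 1.17). In this order 6 of the 9 pairs of neighbours had overlapping ranges. Neighbours from Plin2 down to G0s2, and Plin1 and Cidec, were thus not resolved from each other by 2 libraries. By gene TPM Plin2 and Abhd5 did lie above Plin5, Lipe and G0s2 in both libraries. In transcripts with a complete coding sequence this order did not hold. By RSEM these had 5.15 and 6.49 TPM for Plin2 and 9.24 and 9.99 TPM for Abhd5, beside 9.13 and 12.7 TPM for Plin5. The gap between G0s2 and Plin1 in gene TPM was narrow in replicate 2, at 4.70 and 4.50 TPM. There kallisto reversed it, with 5.99 TPM for G0s2 and 6.54 TPM for Plin1. G0s2 held place 6 in replicate 1 and place 8 in replicate 2.

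**Figure D1:**
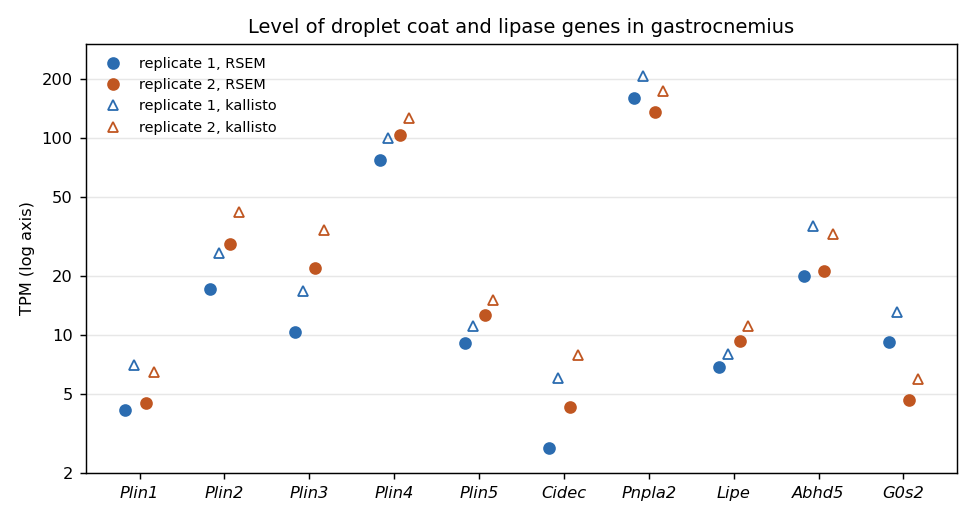
TPM of the 10 genes (log axis), with filled circles for RSEM and open triangles for kallisto, replicate 1 in blue and replicate 2 in orange. Pnpla2 and Plin4 lie above 70 TPM in every case, kallisto values lie above those of RSEM for every gene, and G0s2 is lower in replicate 2 by both tools, at 4.70 TPM by RSEM.

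The second quantification, by kallisto, gave higher values for every gene, for example 207 and 174 TPM for Pnpla2 and 35.8 and 32.7 TPM for Abhd5. Pnpla2 and Plin4 stayed first and second, and 6 of the 10 genes kept their place. TPM also depends on which transcripts the reads are assigned to. A further scale was counts per kilobase of the longest coding transcript, divided by library size. It was added after short incomplete transcripts were seen to carry part of the TPM. By the mean of both libraries, only 2 of the 10 kept their place on this scale, again Pnpla2 and Plin4. Their order differed between the libraries. Pnpla2 had 78.5 and Plin4 56.8 in replicate 1, while Plin4 had 76.0 and Pnpla2 66.6 in replicate 2.

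Among the coats, Plin4 carried most of the RNA. Plin4 encodes a perilipin with a long run of repeats that is found in adipocytes and muscle. It took 65.4% of the summed TPM of the 5 perilipins in replicate 1 and 60.2% in replicate 2. Plin2, the coat that most cells make when they store fat, took 14.5% and 16.9%. Plin3, which is broadly expressed and moves from the cytosol to new droplets, took 8.77% and 12.9%. Plin5, the coat of oxidative tissues, took 7.74% and 7.40%, and Plin1, the adipocyte coat, took 3.54% and 2.63%. Plin4 was thus over 3 times as abundant as the next perilipin in each library by gene TPM, with 4.50 and 3.55 times the TPM of Plin2. The place of Plin2 depended on transcripts without a complete coding sequence. In complete coding transcripts Plin4 stayed first, and Plin5 came next by both tools. By RSEM Plin5 had 9.13 and 12.7 TPM counted in this way, against 5.15 and 6.49 TPM for Plin2. On the scale of counts per kilobase the mean share of Plin4 was 74.0%.

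Among the lipolytic genes, Pnpla2 exceeded its partners in gene TPM, by a factor that differed between the libraries. Much of this TPM is assigned to transcripts without a complete coding sequence. Complete coding transcripts of Pnpla2 had 30.3 and 26.5 TPM by RSEM, beside 9.24 and 9.99 TPM for Abhd5. By kallisto they had 9.84 TPM in replicate 1, below the 11.99 TPM of Abhd5 and the 13.2 TPM of G0s2 counted the same way, and 18.9 TPM in replicate 2, above their 12.4 and 5.99 TPM. The ratios that follow are of gene TPM by RSEM. For each unit of Pnpla2 there was 0.125 of the coactivator Abhd5 in replicate 1 and 0.156 in replicate 2. The inhibitor G0s2 stood at 0.0578 and 0.0347 of Pnpla2, the second lipase Lipe at 0.0429 and 0.0689, and Plin5, which binds both Pnpla2 and Abhd5, at 0.0570 and 0.0937. The ratio of inhibitor to coactivator was 0.463 in replicate 1 and 0.223 in replicate 2. Both tools gave this direction, with 0.367 and 0.183 by kallisto. These ratios are between RNA levels within a library and do not depend on the scaling between libraries.

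The difference between the libraries was measured as the log2 ratio of scaled counts, replicate 2 over replicate 1, beside which the median over 12969 tested genes was -0.00. Of the 10 genes, 8 lay above 0 and 2 below, where 49.8% of all tested genes lay above 0. The median of the 10 was 0.59. Only Plin3 was at least 2-fold apart, where 4.64% of all tested genes were. At 1.5-fold, 6 of 10 were apart, with 13.7% of all tested genes: Plin2, Plin3, Plin5, Cidec and Lipe were higher in replicate 2 (background 7.36%) and G0s2 was lower (background 6.33%). These counts describe 2 libraries, and with 1 group they show no effect of a condition.

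Every perilipin had more counts in replicate 2 and a log2 ratio above 0 in all settings tried. Plin3 had 573 expected counts in replicate 1 and 1360 in replicate 2, a scaled fold of 2.33 with a 95% interval of 2.11 to 2.57. Plin2 had 444 and 763, a fold of 1.68 (1.496 to 1.90). Plin5 had 499 and 784, a fold of 1.54 (1.37 to 1.73). All 3 intervals lie above 1, and they cover counting error only, not the spread between animals. Plin4 had by far the most counts, 12640 and 19116, so that its fold of 1.48 has the narrow interval of 1.45 to 1.52. Plin1 had 194 and 240 counts, and its fold of 1.21 was not resolved at this depth, with an interval of 0.999 to 1.47. Cidec, which promotes the fusion of droplets, had 122 and 213 counts and a fold of 1.71 (1.36 to 2.15). The slow fibre genes were higher in the same library, with a median log2 ratio of 2.60, as were 49.8% of all tested genes. A link between these lists was not tested.

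The lipase genes and their regulators did not move together. Pnpla2 had 7963 and 7643 expected counts, a fold of 0.940 (0.911 to 0.970) and a log2 ratio of -0.09, and 74.3% of all tested genes were at least as far from 0. Its log2 ratio was -0.24 with total gene counts and -0.31 with spike-in totals, and its deposited TPM intervals, 153 to 161 and 129 to 137, did not overlap. Lipe had 485 and 837 counts, a fold of 1.69 (1.51 to 1.89), similar in size to that of Plin2 in scaled counts. As a ratio of deposited TPM the log2 ratio was 0.44 for Lipe and 0.76 for Plin2. Abhd5 had 1200 and 1424 counts, a fold of 1.16 (1.08 to 1.26). G0s2 was the member with the largest difference toward replicate 1, with 207 and 119 counts and a fold of 0.563 (0.446 to 0.709), a log2 ratio of -0.82. Pnpla2 and its inhibitor G0s2 were thus lower in replicate 2, G0s2 by more, and Lipe was higher.

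**Figure D2:**
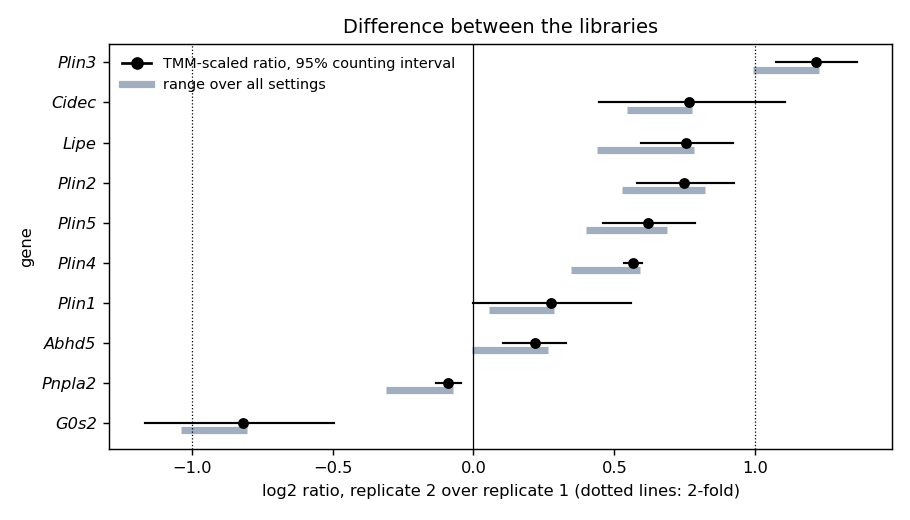
Log2 ratio of replicate 2 over replicate 1 for each gene, with points for the TMM-scaled ratio, black lines for 95% counting intervals and grey bars for the lowest and highest value over all settings. Plin3 lies past the dotted 2-fold line, G0s2 lies at -0.82, and Pnpla2 lies closest to 0.

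The deposited tables also give an interval for each gene's TPM, whose level is not given in the sources used here. It surrounds a posterior mean rather than the TPM itself, so for Plin4 the TPM of 77.2 lies above the interval of 74.1 to 76.7 in replicate 1. The intervals of the libraries overlapped for 3 members, Plin1, Cidec and Abhd5, and were apart for 7. Among protein-coding genes with counts in both libraries 22.1% were apart, and well-counted genes have narrow intervals.

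The scaling between libraries moved these values. The median over all tested genes was -0.22 when libraries were scaled by spike-in totals and -0.15 when scaled by total gene counts, so every ratio given here, those of the lists below included, shifts down by about as much. Under spike-in totals the median of the 10 was 0.37, Plin3 came to 0.99 and G0s2 to -1.04, so that G0s2 and not Plin3 was 2-fold apart. Abhd5 was the only member whose sign changed over the settings tried, at -0.01 with spike-in totals.

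Markers of other cells moved as well. The slow fibre list was higher in replicate 2 in all 8 genes, each by 2-fold or more. The fast fibre list had a median of 0.01. The 6 tested adipocyte markers were all above 0, with a median of 0.70 by RSEM counts and 0.39 by kallisto, and a summed TPM over all 8 listed of 107 in replicate 1 and 125 in replicate 2. Among them Fabp4, a fatty acid carrier of adipocytes and endothelium, had 55.8 and 59.9 TPM, Cfd (adipsin) had 42.8 and 48.7 TPM, and the adipocyte hormone Adipoq had 4.36 and 4.77 TPM. Pck1 (log2 ratio 2.19) and Adig (1.42) lay farthest from 0, while Ucp1, the defining gene of brown fat, was listed at 0 in both libraries. Plin1 at 4.18 and 4.50 TPM was close to the level of Adipoq in each library. Macrophage markers had a median of 0.12. Cd68 at -1.24 was the only one of 6 that was 2-fold apart, where 4.64% of all tested genes were. Fibro-adipogenic markers had a median of 0.17, but the collagen genes Col1a1 (1622 and 5382 counts, log2 ratio 1.70) and Col3a1 (1689 and 6318 counts, 1.87) were over 2-fold higher in replicate 2. Of the 5 endothelial markers, 1 lay above 0 and 4 below, from Cldn5 at -0.97 to Cdh5 at 0.22, with a median of -0.76. The part of fibre type, connective tissue and fat cells in the ratios of the coat and lipase genes was not tested.

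Other genes of the pathway were taken from lists of related enzymes and regulators. Of 13 triglyceride synthesis genes, 11 were tested, 8 lay above 0 and 3 below, and the median was 0.15. Of these, 3 were at least 2-fold higher in replicate 2, where 2.7% of all tested genes were, and none was 2-fold lower. Dgat2, which adds the last fatty acid to a triglyceride, had 5.95 TPM in replicate 1 and 18.3 TPM in replicate 2 (log2 ratio 1.75). The phosphatidate phosphatase gene Lpin2 had 1.40 and 2.75 TPM (1.39). The third was Agpat2, an acyltransferase gene of adipocytes named only to complete the count, with 1.39 and 2.77 TPM (1.10). The highest in TPM were Lpin1, the muscle phosphatidate phosphatase, at 159 and 107 TPM, the acyltransferase gene Agpat3 at 52.3 and 51.6 TPM, and Gpam, the first acyltransferase of the pathway, at 40.4 and 58.3 TPM.

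The list of droplet formation and other droplet proteins had 13 genes. Of these, 10 were tested, 4 lay above 0 and 6 below, and the median was -0.05. None was 1.5-fold apart, where 13.7% of all tested genes were. Fitm1, a muscle protein of the endoplasmic reticulum that partitions fat into droplets, had 113 and 127 TPM, more than Plin4 in both libraries. The droplet GTPase gene Rab18 had 65.9 and 57.2 TPM and Aup1, whose protein brings a ubiquitin enzyme to droplets, had 53.2 and 44.1 TPM. Faf2, which helps remove proteins from droplets, lay farthest from 0 at -0.47, and Tmem159, a partner of seipin, lay at 0.44.

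Of 11 other lipases and esterases, 10 were tested, 6 lay above 0 and 4 below, and the median was 0.14. Lpl, the lipase that frees fatty acids from circulating lipoproteins, was the only one at least 2-fold apart, where 4.64% of all tested genes were. It had 65.4 TPM in replicate 1 and 148 TPM in replicate 2 (log2 ratio 1.33). The carboxylesterase gene Ces1d had 79.1 and 56.9 TPM and Pnpla8, a calcium-independent phospholipase gene, had 72.2 and 55.0 TPM. In replicate 1 all 3 lay below Pnpla2, and in replicate 2 Lpl lay above its 135 TPM. Mgll, the enzyme that removes the last fatty acid after Pnpla2 and Lipe, was outside the rule for named genes and is given for its place in the pathway, with 8.86 and 11.0 TPM.

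Of 12 lipolysis signalling genes, 8 were tested, 5 lay above 0 and 3 below, and the median was 0.05. None was 1.5-fold apart, where 13.7% of all tested genes were. Gnas, which encodes the stimulatory G protein, had 558 and 591 TPM. The protein kinase A subunit genes Prkar2a and Prkaca had 86.2 and 74.0 TPM, and 62.8 and 68.7 TPM. Of 9 nuclear receptor and coactivator genes, all tested, 6 lay above 0, and the median was 0.47. Ppara, the receptor that drives fatty acid burning genes, has perilipins among its known targets. It had 1.94 TPM in replicate 1 and 9.73 TPM in replicate 2 (log2 ratio 2.15). Pparg, its adipocyte relative, had 0.97 and 1.52 TPM (0.78). With spike-in totals the list medians were -0.07 for triglyceride synthesis, -0.28 for droplet formation, -0.08 for other lipases, -0.17 for signalling and 0.25 for nuclear receptors.

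**Figure D3:**
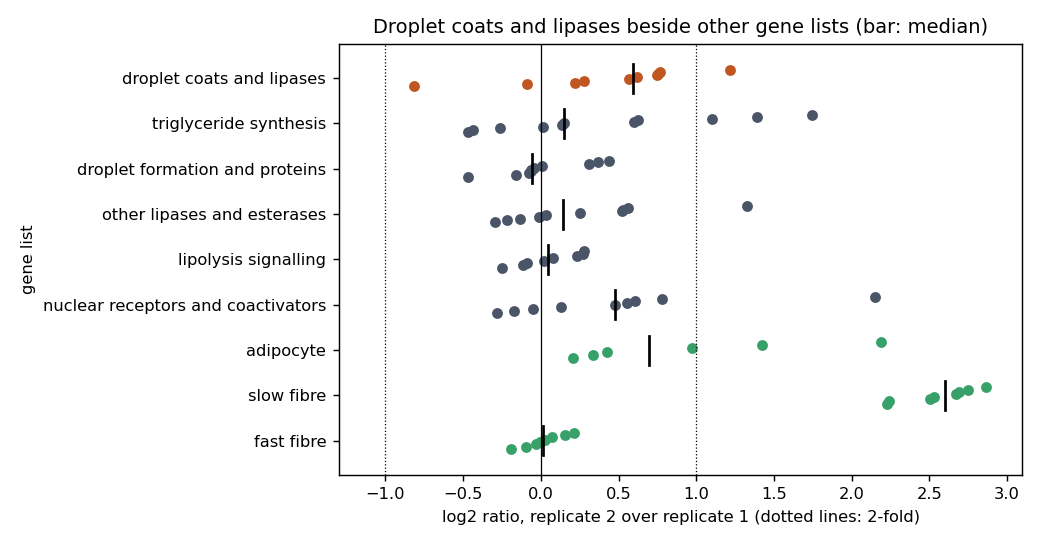
Log2 ratio of replicate 2 over replicate 1 for every tested gene of the coat and lipase set (orange), 5 pathway lists (grey) and 3 marker lists (green), with black bars for medians. The 10 coat and lipase genes have a median of 0.59, droplet formation genes lie around 0, and the 8 slow fibre genes all lie above 2.

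The transcripts of each gene showed how far its TPM stands for messages that encode the whole protein. Only Plin4, Plin5 and G0s2 were made up wholly of transcripts with a complete coding sequence in both tools. By the mean of both libraries, the top transcript was the same by both tools for 8 of 10 genes, all but Plin1 and Lipe. In replicate 1 alone, kallisto also put Plin4-201 and Abhd5-205 first, at 58.3% and 39.7%. By RSEM the top transcript took 90% or more of the gene's mean TPM for 2 genes, Plin4 and G0s2, and by kallisto Plin4-202 took 63.7%. Of the 49 transcripts, 9 were listed at 0 in both libraries by RSEM.

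**Figure D4:**
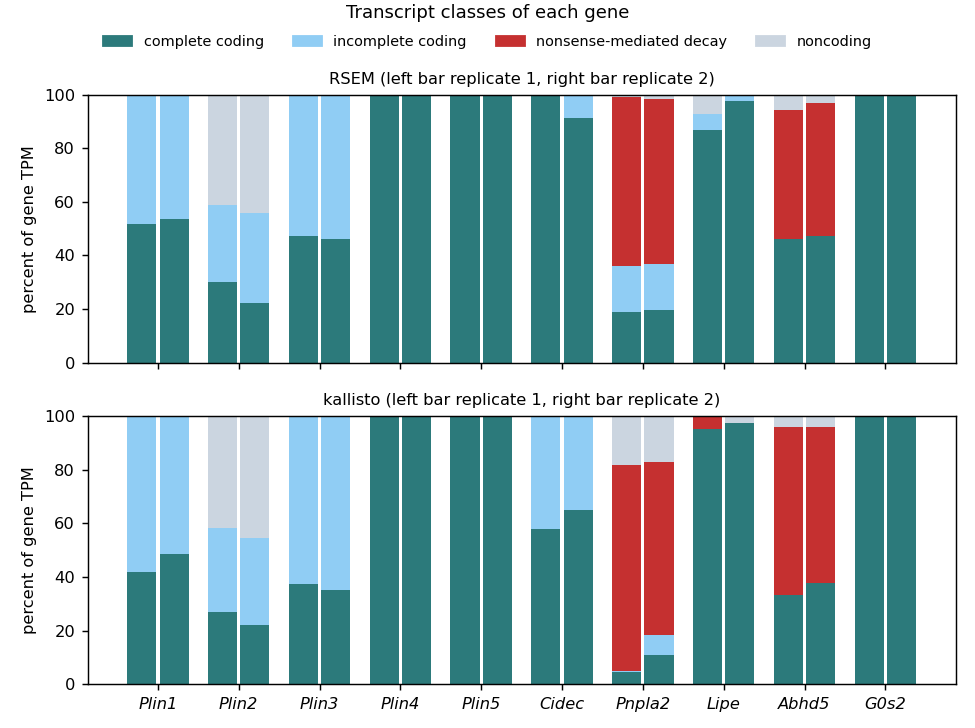
Percent of each gene's TPM in transcripts with a complete coding sequence (teal), an incomplete one (light blue), annotation as targets of nonsense-mediated decay (red) or no coding sequence (grey), for RSEM above and kallisto below. Pnpla2 and Abhd5 are the only genes in which decay targets take over 40%.

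In Pnpla2 the most abundant transcript by both tools was Pnpla2-201, which the annotation marks as a target of nonsense-mediated decay, the pathway that destroys messages with an early stop codon. It took 57.8% of the gene's TPM in replicate 1 and 57.3% in replicate 2 by RSEM, and 68.0% and 56.1% by kallisto. Its extra exon of 82 bases, at chr7:141456568-141456649 on the plus strand (GRCm38/mm10), lies between the first coding exon and the next, and only Pnpla2-204 shares it. With the extra exon the reading frame stops after 70 codons. Pnpla2-203, which skips it, reads on for 486 codons. The stretches below run from the last 27 bases of the first coding exon, chr7:141455447-141455473. They are shown because the early stop, which lies within the extra exon, is visible in that of Pnpla2-201. The first printed base is the second of a codon, the stop codon in frame is in capitals, and the sequences are those of the GENCODE M21 transcripts.
Pnpla2-201: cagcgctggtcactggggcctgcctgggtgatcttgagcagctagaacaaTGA
Pnpla2-203: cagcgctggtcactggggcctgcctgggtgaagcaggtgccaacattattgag

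Transcripts with the extra exon took 63.1% and 61.7% of Pnpla2 TPM by RSEM and 76.9% and 64.4% by kallisto. The level of Pnpla2 message that encodes a whole protein, given above, depended on the tool. The complete forms are Pnpla2-203, at 1.49% and 3.39% by RSEM, and Pnpla2-202, which lacks an inner exon of 168 bases, at 17.4% and 16.2%. The incomplete Pnpla2-206 took 17.2% and 17.3% by RSEM but 0.0426% and 7.60% by kallisto. The retained-intron form Pnpla2-207 took 0.806% and 1.51% by RSEM but 18.3% and 17.2% by kallisto.

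The annotation limits how these shares can be read. Pnpla2-203 is the only transcript with the full coding sequence, and its last exon has 1355 bases, where that of Pnpla2-201 has 704. No annotated transcript joins the full coding sequence to a last exon under 800 bases. In these tables reads from such an RNA, if there is one, cannot be told apart from reads of Pnpla2-201. Reads across exon junctions were not used here. These Pnpla2 and Abhd5 exons were picked for description after their shares were seen.

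**Figure D5:**
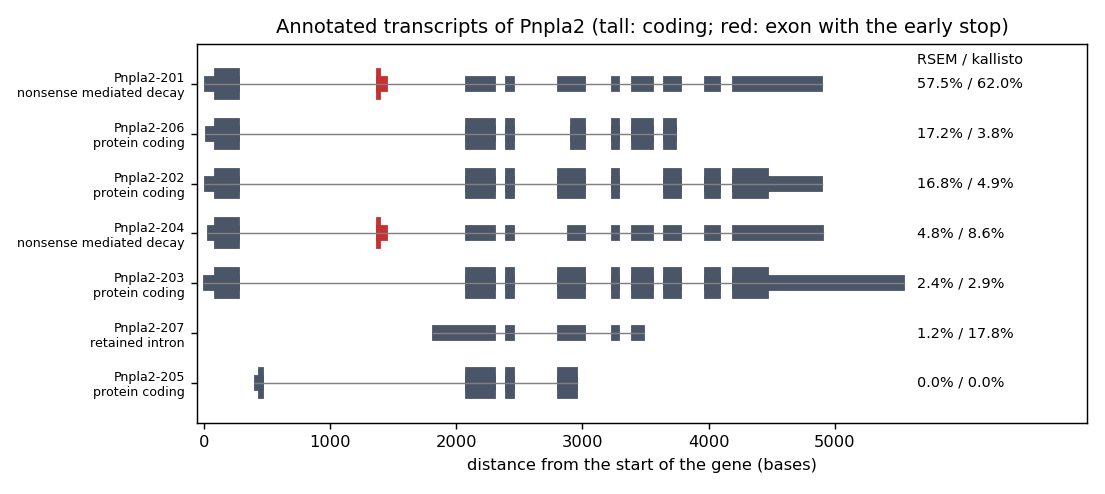
Exons of the 7 annotated Pnpla2 transcripts by distance from the start of the gene in bases, with tall boxes for coding sequence, low boxes for the rest and red for the 82-base exon, and mean percent of gene TPM by RSEM and kallisto at the right. Pnpla2-203 has the full coding sequence and the longest last exon, and Pnpla2-201 leads in both tools.

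Abhd5, the coactivator, had the same kind of split. Abhd5-204, which encodes the full protein of 351 codons, took 46.2% and 47.3% of the TPM by RSEM and 33.5% and 37.9% by kallisto. Abhd5-201 has an added exon of 50 bases at chr9:122363815-122363864 (GRCm38/mm10, plus strand) and stops after 38 codons. Abhd5-205 skips an exon of 86 bases, chr9:122365136-122365221, and stops after 46 codons. The stretches start in the last 21 bases of the first coding exon, chr9:122351819-122351839, and show the 3 ways in which that exon is joined on. The first printed base is the third of a codon, and the stop codon in frame is in capitals.
Abhd5-204: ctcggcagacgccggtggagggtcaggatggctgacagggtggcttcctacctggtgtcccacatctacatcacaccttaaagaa
Abhd5-201: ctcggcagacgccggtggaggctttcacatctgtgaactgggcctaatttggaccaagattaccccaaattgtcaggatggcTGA
Abhd5-205: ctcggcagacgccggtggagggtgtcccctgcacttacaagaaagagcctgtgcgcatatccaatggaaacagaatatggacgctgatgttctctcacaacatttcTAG

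The decay forms of Abhd5 together took 48.2% and 49.5% of TPM by RSEM and 62.7% and 58.1% by kallisto. The tools divided them differently. Abhd5-201 had 40.4% and 34.8% by RSEM against 23.0% and 28.5% by kallisto, while the short Abhd5-205 had 7.80% and 14.7% against 39.7% and 29.6%. In counts these forms were a smaller part of the gene, 27.4% and 26.1% by RSEM, since they are shorter than Abhd5-204.

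In other members, short or nearly identical models set the split. Plin3-202, an incomplete model of 562 bases, took 52.9% and 53.9% of Plin3 TPM but only 12.8% and 13.3% of its counts. The full-length Plin3-201 had 4.87 TPM in replicate 1 and 10.2 TPM in replicate 2, so the difference seen for the gene was also present in its complete form. In Plin2 the noncoding Plin2-208 took 40.2% and 42.9%, the complete Plin2-201 30.0% and 22.4%, and the incomplete Plin2-205 12.5% and 23.6%. The incomplete Plin2-206 took 12.5% and 9.99%. The complete Plin2-201 rested on 267 and 380 counts. It had 5.15 and 6.49 TPM, a smaller fold than that of the gene at 17.2 and 29.0 TPM. Plin2-208 had 6.90 and 12.5 TPM and Plin2-205 had 2.15 and 6.86 TPM.

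Plin1-206, a complete form, and the incomplete Plin1-205 took 46.3% and 46.6%, and 39.4% and 39.0%, by RSEM, and kallisto put Plin1-205 first. The incomplete Plin1-204 reached 12.6% and 11.0% by kallisto on 4 counts in each library. Plin4-201 and Plin4-202 differ by 1 base in length, and the shorter lies wholly within the longer. RSEM gave all Plin4 counts to Plin4-202, while kallisto gave Plin4-201 58.3% in replicate 1 and 14.2% in replicate 2, so this split carries no information on the gene. Plin5-201 and Plin5-202 have 1986 bases each, share a run of 1887 bases and encode the same protein length. Plin5-202 took 18.3% in replicate 1 and 28.1% in replicate 2 by RSEM but 18.2% and 7.69% by kallisto. The tools thus disagreed on which library had more of it.

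Cidec-201 and Cidec-202 share a run of 1676 bases, and RSEM divided the gene between them at 37.0% and 43.2% against 57.4% and 48.0%. By kallisto Cidec-202 took 57.9% and 64.3%, and the incomplete Cidec-204 took 42.1% and 35.1% on 6 and 8 counts. For Lipe, Lipe-202 took 58.1% and 54.8% and Lipe-208 24.3% and 38.8% by RSEM, and kallisto put Lipe-208 first with 46.5% and 69.5%. Both encode the same coding length of 2277 bases. Lipe-204, the model with the longest coding sequence, 3216 bases, was listed at 0 by both tools in both libraries. G0s2 has 1 annotated transcript.

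Some of these genes share their locus with a gene on the other strand, and the strand setting of the counting is not given in the sources used here. G0s2 (chr1:193272161-193273217, minus strand) lies wholly within the span of Lamb3, a laminin gene that had 26 and 87 counts, higher in replicate 2 where G0s2 was lower. Lipe (chr7:25379527-25398710, minus strand) lies within 4732471J01Rik, an antisense gene with 19 and 9 counts. Abhd5 (chr9:122351608-122381524, plus strand) overlaps A730085K08Rik, which had 0 counts in both libraries. Plin4 (chr17:56100591-56109803, minus strand) shares only 17 bases with Hdgfl2. Hdgfl2 had 703 and 661 counts beside 12640 and 19116 for Plin4. In replicate 2 the 87 counts of Lamb3 were not far below the 119 of G0s2, while the other neighbours had far fewer counts than the gene they overlap. Plin5 (chr17:56111601-56117596) and Plin3 (chr17:56277476-56292873) are also on the minus strand of chromosome 17.

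The promoters, 250 bases before to 50 after a RefSeq start (GRCm38.p6), were searched on both strands because most of the coats differed in the same direction. The 10 genes have 13 promoters among 32851. The CCAAT box (CCAAT) was found in 4 of the 13, those of Plin2, Plin3, Plin4 and Plin5, a smaller share than the 37.4% of all promoters. The nuclear receptor hexamer (AGGTCA) was found in 4, belonging to Abhd5, Plin2 and Plin5, against 16.3% of all, and the E-box (CACGTG) in 2, of Lipe and Plin2, against 7.15%. No member promoter held the full PPAR element (AGGTCANAGGTCA, 0.0396% of all), the glucocorticoid receptor element (GNACANNNTGTNC, 0.475%) or the TATA box (TATAAA, 13.6%). The full PPAR element as searched contains this hexamer, and a match or its absence says nothing of binding. Shown are the 100 bases before the start of Plin2 and Plin3, read along the minus strand. They were picked as the perilipin genes with the highest ratios, and any part of the box in those ratios was not tested. The CCAAT box or its complement (in capitals) lies 73 and 75 bases before the start. Plin2 is at chr4:86670060-86670159 and Plin3 at chr17:56290512-56290611.
Plin2: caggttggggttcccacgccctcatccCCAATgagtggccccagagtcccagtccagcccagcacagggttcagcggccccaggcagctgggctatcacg
Plin3: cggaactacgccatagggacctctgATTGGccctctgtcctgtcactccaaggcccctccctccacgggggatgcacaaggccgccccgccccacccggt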

How the data were processed

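Gene and transcript tables of 2 total RNA-seq libraries of 1 group were used. The libraries' deposited notes name mm10 as the build and GENCODE M21 as the annotation. Deposited expected counts, TPM and posterior mean TPM have RSEM's column names, per the file headers, and derive from the authors' transcriptome alignments. The deposited bounds of the TPM intervals are a score on the TPM scale. Deposited estimated counts and TPM per transcript carry kallisto's column names, per the file headers, and were summed per gene here. The aligner and tool versions were not given. The spike-in label names stranded, ribosome-reduced libraries.

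Expected counts were rounded. Genes whose counts summed to 50 or more were scaled by TMM and turned into log2 CPM with a prior count of 2 (edgeR 4.0.16, R 4.3.3), and DESeq2 1.42.0 gave alternative size factors. Fold intervals are exact conditional binomial intervals at 95%, which leave out all but counting error because they use the counts of 1 library against 1. Reads were not tied to single molecules by identifiers, so this error is that of counting reads. Level ranks run over protein-coding genes. Transcript classes, exons and neighbours came from GENCODE M21, promoters from RefSeq, and the 10 genes all matched. Python 3.11.15 with numpy 2.4.6, pandas 2.3.3, scipy 1.17.1 and matplotlib 3.10.9 did the rest. The ratio step was tested on simulated data.

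The members and lists were chosen with earlier results of these data known. Named are all members, up to 3 genes of highest TPM and up to 2 tested genes farthest from 0 in each pathway list and those described of the marker lists, transcripts at 10% or more of a gene's TPM, and what the text marks as chosen later. Alternatives were other scalings, prior counts, count filters, quantifiers and leaving out each library. Some genes of the lists are not reported here.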

Additional observations from a re-analysis of the deposited data

How the results depend on the processing

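Over 87 alternative values of single-gene ratios, 15 moved beyond the counting interval, the sign change of Abhd5 to -0.01 under spike-in totals among them, and 72 did not. The number of coat and lipase genes at least 2-fold apart was 1, and under spike-in totals that 1 gene was G0s2, not Plin3. At a threshold of 1.5-fold the number was 6 with the main scaling. Under spike-in totals Plin2, Plin5, Cidec and Lipe fell short of 1.5-fold. Their median log2 ratio of 0.59 became 0.45 with total gene counts, 0.37 with spike-in totals and 0.43 as a ratio of deposited TPM. With kallisto the summed TPM of the 10 genes was 444, the ratio of Abhd5 to Pnpla2 was 0.181, the percent of Pnpla2 TPM with the extra exon was 70.6 and that of Abhd5 in decay forms was 60.4. With counts per kilobase, an alternative chosen after seeing the data, the ratio of G0s2 to Pnpla2 was 0.0626 and the Plin4 share of the perilipins was 74.0%. A summed count of at least 500 left out Plin1, Cidec and G0s2. Leaving out 1 library gives the other library's value for levels, shares and ratios within a library, both of which are in the report, and leaves no ratio between libraries. No paired analysis was possible because there is 1 group. Depth limits Plin1, Cidec and G0s2 most, each with 119 to 240 counts per library. The 2 libraries give no estimate of the spread among mice of this age beyond their own difference. The labels do not settle whether they come from separate mice.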
